A study of Homo sapiens with 60 samples.

Results

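Cells exposed to arsenic for 6 h and cells exposed to cadmium for 6 h were compared directly across all genes with enough counts, rather than through non-treated cells. The comparison used the 3 libraries labelled as arsenic at 6 h and the 3 labelled as cadmium at 6 h, which are 6 of the 60 libraries of a time course of arsenic, cadmium, mercury, and no treatment from 1.5 to 24 h. All came from 1321N1 cells, an astrocyte-derived human astrocytoma line, with no genetic change named in the labels. Arsenic was given as sodium metaarsenite at 2.55 µM and cadmium as cadmium chloride at 2.3 µM. The authors chose these concentrations to cause the same degree of cell death, determined for a longer treatment than 6 h. Non-treated cells were collected at 6 h as well and are the reference for the level of each gene. Because each metal was given at a single concentration, the metal and its dose cannot be told apart. The labels call the 3 libraries of a group technical, so the p-values measure the spread between these libraries and may not cover independent cultures.

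Cells meet both metals with several defence programmes. Metal regulatory transcription factor 1 (MTF1) is activated by zinc, including zinc displaced by cadmium, and binds metal response elements in front of the metallothionein genes, whose cysteine-rich products chelate metal ions, and of SLC30A1, the zinc exporter of the plasma membrane. Misfolded proteins release heat shock factor 1, which binds heat shock elements of chaperone genes. Electrophiles and oxidants stabilise NRF2, which controls heme oxygenase and glutathione synthesis, whereas phosphorylation of eIF2α raises ATF4, which controls amino acid supply. MAPK signalling induces immediate-early transcription factors together with phosphatases that shut the signal down.

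The promoters of 5 genes that were lower with arsenic are shown so that their motif content can be set beside their values. That of MT1E is not among them. The sequences are RefSeq promoters on GRCh38.p14, from 250 bases before to 50 bases after the annotated start, 5′ to 3′ on the strand of the gene. Capitals mark TGCACNC or TGCGCNC, the core of the metal response element on either strand, in MT1X, MT2A, and SLC30A1, and GAANNTTC, a pair of inverted heat shock units, in HSPA1A and HSPA6. No marked matches overlap. The promoters lie at chr16:56682220-56682519 (MT1X, plus strand), chr16:56608334-56608633 (MT2A, plus strand), chr1:211579112-211579411 (SLC30A1, minus strand), chr6:31815293-31815592 (HSPA1A, plus strand), and chr1:161524290-161524589 (HSPA6, plus strand).
MT1X: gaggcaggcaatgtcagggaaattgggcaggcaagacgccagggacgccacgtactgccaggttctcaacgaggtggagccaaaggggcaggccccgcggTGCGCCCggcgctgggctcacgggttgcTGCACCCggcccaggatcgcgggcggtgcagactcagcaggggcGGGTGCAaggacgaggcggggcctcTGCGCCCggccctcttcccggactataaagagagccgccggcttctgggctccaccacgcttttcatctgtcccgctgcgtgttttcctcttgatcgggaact
MT2A: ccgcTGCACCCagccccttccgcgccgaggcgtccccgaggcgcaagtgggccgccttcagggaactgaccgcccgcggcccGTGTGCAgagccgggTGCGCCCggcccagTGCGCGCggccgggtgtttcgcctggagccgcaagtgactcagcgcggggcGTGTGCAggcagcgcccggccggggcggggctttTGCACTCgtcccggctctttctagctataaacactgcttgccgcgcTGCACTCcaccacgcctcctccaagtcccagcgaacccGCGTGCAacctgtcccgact
SLC30A1: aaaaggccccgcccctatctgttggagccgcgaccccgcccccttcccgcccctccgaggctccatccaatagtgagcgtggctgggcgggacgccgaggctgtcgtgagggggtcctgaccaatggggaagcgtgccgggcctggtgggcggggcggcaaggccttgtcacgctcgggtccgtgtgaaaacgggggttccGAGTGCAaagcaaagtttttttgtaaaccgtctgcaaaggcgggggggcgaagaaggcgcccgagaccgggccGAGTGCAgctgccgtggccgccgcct
HSPA1A: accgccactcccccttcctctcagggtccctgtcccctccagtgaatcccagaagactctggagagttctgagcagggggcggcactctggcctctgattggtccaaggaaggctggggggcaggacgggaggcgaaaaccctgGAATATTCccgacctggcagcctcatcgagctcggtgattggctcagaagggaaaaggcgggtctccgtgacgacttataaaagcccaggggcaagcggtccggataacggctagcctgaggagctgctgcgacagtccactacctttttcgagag
HSPA6: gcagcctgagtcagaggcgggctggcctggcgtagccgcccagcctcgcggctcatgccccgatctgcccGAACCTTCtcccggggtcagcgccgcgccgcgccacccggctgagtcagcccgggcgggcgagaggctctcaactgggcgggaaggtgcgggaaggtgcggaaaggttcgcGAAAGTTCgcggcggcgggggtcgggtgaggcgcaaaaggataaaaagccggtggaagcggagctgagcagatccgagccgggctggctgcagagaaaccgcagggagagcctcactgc

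The metal response core occurred 4 times in the promoter of MT1X, 8 times in that of MT2A, and 2 times in that of SLC30A1. The heat shock pair occurred 1 time in HSPA1A and 2 times in HSPA6. It occurred 0 times in the promoter of ZFAND2A, a heat-shock gene that was also lower with arsenic. In HSPA1B it occurred 1 time and in the promoters of DNAJB1 up to 2 times, although neither gene separated the metals. A match describes letters and is not a shown binding site. Of 35116 promoters of this length, 29.6% held the metal response core and 6.77% the heat shock pair, and among the promoters of all genes tested the shares were 37.4% and 4.98%. Among the promoters of the genes lower with arsenic they were 41.6% and 9.04% (166 promoters of 101 matched genes out of 125). Among those of the genes higher with arsenic they were 48.1% and 3.7% (27 promoters of 19 matched genes out of 21).

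The 6 libraries held between 2589901 and 3660738 counts, and 12341 genes had enough counts to be tested. Levels are given as CPM, the count divided by the normalized library size in megareads, and in these libraries 3 counts correspond to 0.802 to 1.17 CPM, a floor that covers counting error only. The cell line was checked against marker genes. VIM and CD44, which astrocytoma cells express, had means of 4296 and 397 CPM with arsenic and 4464 and 437 CPM with cadmium. SOX9, GJA1, and GLUL had means of 46.5, 17.3, and 23.6 CPM with arsenic and 76.1, 22.5, and 19.6 CPM with cadmium. SOX9 was itself among the genes called lower with arsenic. The astrocyte genes GFAP, S100B, AQP4, ALDH1L1, and FABP7 had 0 counts in both groups. The authors left out of the table reads that overlap more than one gene. The other listed astrocyte genes, NES, SLC1A3, and SLC1A2, had means of at most 3.40 CPM. Of the 9 neuron, 8 oligodendrocyte, 8 immune, and 7 endothelial markers listed, only CNP, GAD1, and SYT1 had a mean above 4 CPM in either group. Cadmium library 1 stood apart, with 1.35% of its counts on mitochondrially encoded genes compared with 3.83 to 6.19% in the other 5 libraries. Its chi-square per degree of freedom to the other cadmium libraries was 10.2 and 13.3, compared with 3.02 to 5.26 for the other pairs of replicates. Without this library 95 genes were called in place of 146, with 88 called in both fits.

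Many more genes were lower with arsenic than higher. A gene was called at an adjusted p under 0.05 in edgeR's quasi-likelihood test with Benjamini-Hochberg adjustment, and its log2 fold change (LFC) is arsenic minus cadmium. By this rule 125 genes (1.01% of those tested) were lower with arsenic than with cadmium and 21 genes (0.17%) were higher. An LFC below -1 was reached by 29 called genes (0.235%) and an LFC above 1 by 9 (0.0729%). The median LFC was -0.72 among the genes called lower, 0.93 among those called higher, and 0.0039 over all genes. The values of the 2 groups did not overlap for 140 of the 146 called genes and for 13.8% of all genes tested. The calls were made on these same values, so the first count largely follows from them and is not added support. Leaving out a single library gave 84 to 113 genes lower with arsenic. The count of higher genes rested on single libraries, with 5 without arsenic library 2, 8 without cadmium library 2, 10 without cadmium library 1, and 13 without arsenic library 1.

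**Figure D1:**
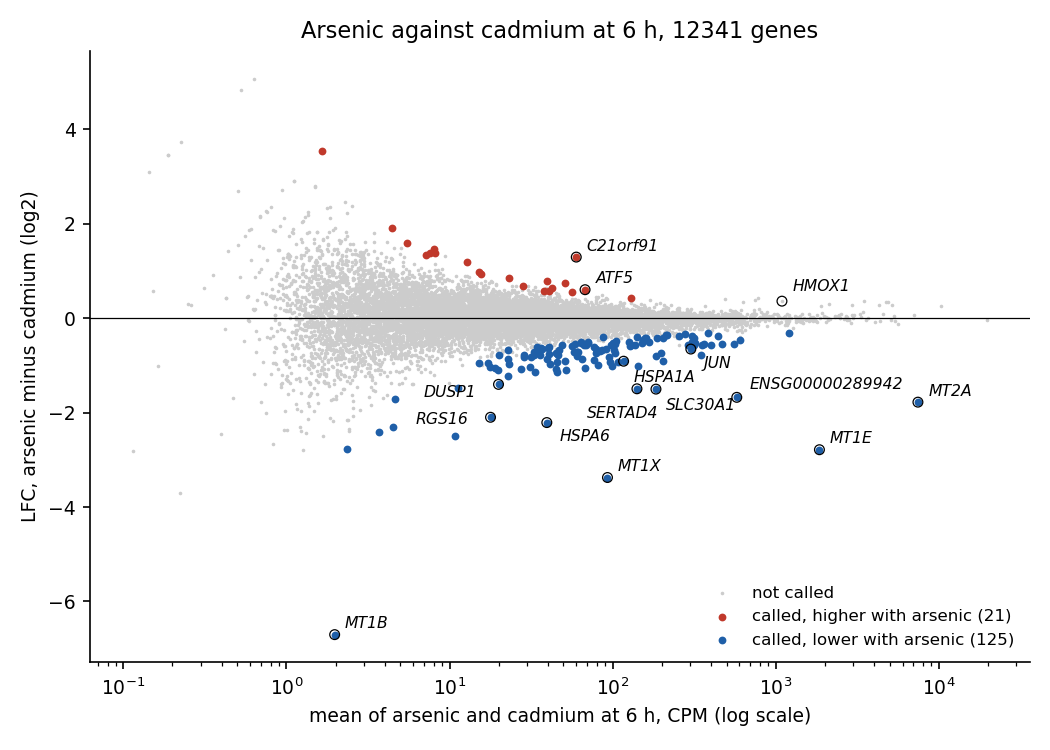
LFC of arsenic minus cadmium at 6 h against the mean level of both groups in CPM (log scale), for the 12341 genes tested, with called genes coloured and selected genes ringed and named. MT1E at -2.79, MT1X at -3.38, and MT2A at -1.78 lie far below other genes of their level, HMOX1 at 0.36 is not called, and the point of MT1B is a fitted value from 0 counts with arsenic.

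Metallothioneins were lower with arsenic than with cadmium. Of the 11 genes listed, 4 had enough counts and all 4 were called lower (1.01% over all genes). The median LFC was -3.08, or -2.46 with MT1B, which had 0 counts with arsenic, at its bound. At 6 h MT1B had counts almost only with cadmium, so its passing of the count filter is not independent of its call. MT1E (chr16:56625475-56627112) was at 436, 462, and 512 CPM in the arsenic libraries and at 3174, 3108, and 3446 CPM in the cadmium libraries. Non-treated cells had 204 to 289 CPM, so the 3 groups did not overlap and arsenic lay between non-treated cells and cadmium. The LFC between the metals was -2.79 ± 0.11 (SE, n = 3 per group, adjusted p = 8.72e-32), a 6.90-fold higher level with cadmium.

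MT1X (chr16:56682470-56684196) had the lowest LFC among called genes that averaged 50 counts or more per library. It was at 12.3, 16.3, and 20.3 CPM with arsenic and at 167, 167, and 175 CPM with cadmium, a 10.4-fold difference (LFC -3.38 ± 0.17, adjusted p = 6.71e-25). MT2A (chr16:56608584-56609497) was at 3295, 3362, and 3439 CPM with arsenic and at 11285, 11622, and 11751 CPM with cadmium. The libraries of each metal lay close together, and the LFC was -1.78 ± 0.19 (adjusted p = 2.27e-10). Against non-treated cells, at 2540 to 2646 CPM, MT2A rose with cadmium (LFC 2.16), whereas its LFC of 0.38 with arsenic was not called. MT1B had 0 counts in all arsenic libraries and 3.58, 5.07, and 3.20 CPM with cadmium, at least 4.39-fold higher when 3 counts in a library are taken as the floor of the arsenic group. Of the other metallothioneins followed here, MT1F and MT1M had 0 counts in both groups, and MT1G had 0 counts with arsenic and 0, 4, and 4 counts with cadmium, too few to test.

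These genes resemble each other in sequence. The authors dropped alignments that overlap more than one annotated gene and ignored secondary alignments. Neither step removes a read whose sequence matches several genes at different places, so such a read may be counted at any of them. Stretches of 50 bases in the last 400 bases of their transcripts were searched in other genes. Also found there were 34.7% of those of MT1X, 18.4% of MT1B, 6.19% of MT1E, and 6.11% of MT2A. The values of MT1X and MT1B are therefore the less certain. All of those of MT1B were shared with ENSG00000259923, and 27.3% of those of MT1X with ENSG00000259827. Whether these genes lie at the same place as the metallothionein was not checked. A long non-coding RNA gene moved with the metallothioneins. ENSG00000289942, annotated at chr4:68376551-68376665 with 115 bases, was at 233, 308, and 284 CPM with arsenic and at 982, 836, and 824 CPM with cadmium (LFC -1.68 ± 0.13, adjusted p = 7.43e-16). Its sequence matched the 3′ end of the MT2A transcript at 97 of 100 aligned bases. Of its 66 stretches of 50 bases, 3 (4.55%) occur unchanged in MT2A. It begins 45 bases after MT2P1, a processed pseudogene of metallothionein 2 with 0 to 3 counts per library. Whether its counts are reads of MT2A was not tested.

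Among zinc transporters, 1 gene differed. SLC30A1 (chr1:211571568-211579161) was at 93.3, 97.5, and 97.7 CPM with arsenic and at 253, 258, and 308 CPM with cadmium, and non-treated cells had 36.7 to 48.5 CPM. The 3 groups did not overlap and stood in the same order as for MT1E. The LFC between the metals was -1.50 ± 0.12 (adjusted p = 2.37e-15), a 2.83-fold higher level with cadmium. Of the 6 exporters of the SLC30 family tested, none of the others was called (list median LFC 0.045). None of the 10 importers of the SLC39 family tested was called by edgeR (1 had an unadjusted p under 0.05), and the importer SLC39A10 had an LFC of 0.26 ± 0.31 with overlapping groups.

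**Figure D2:**
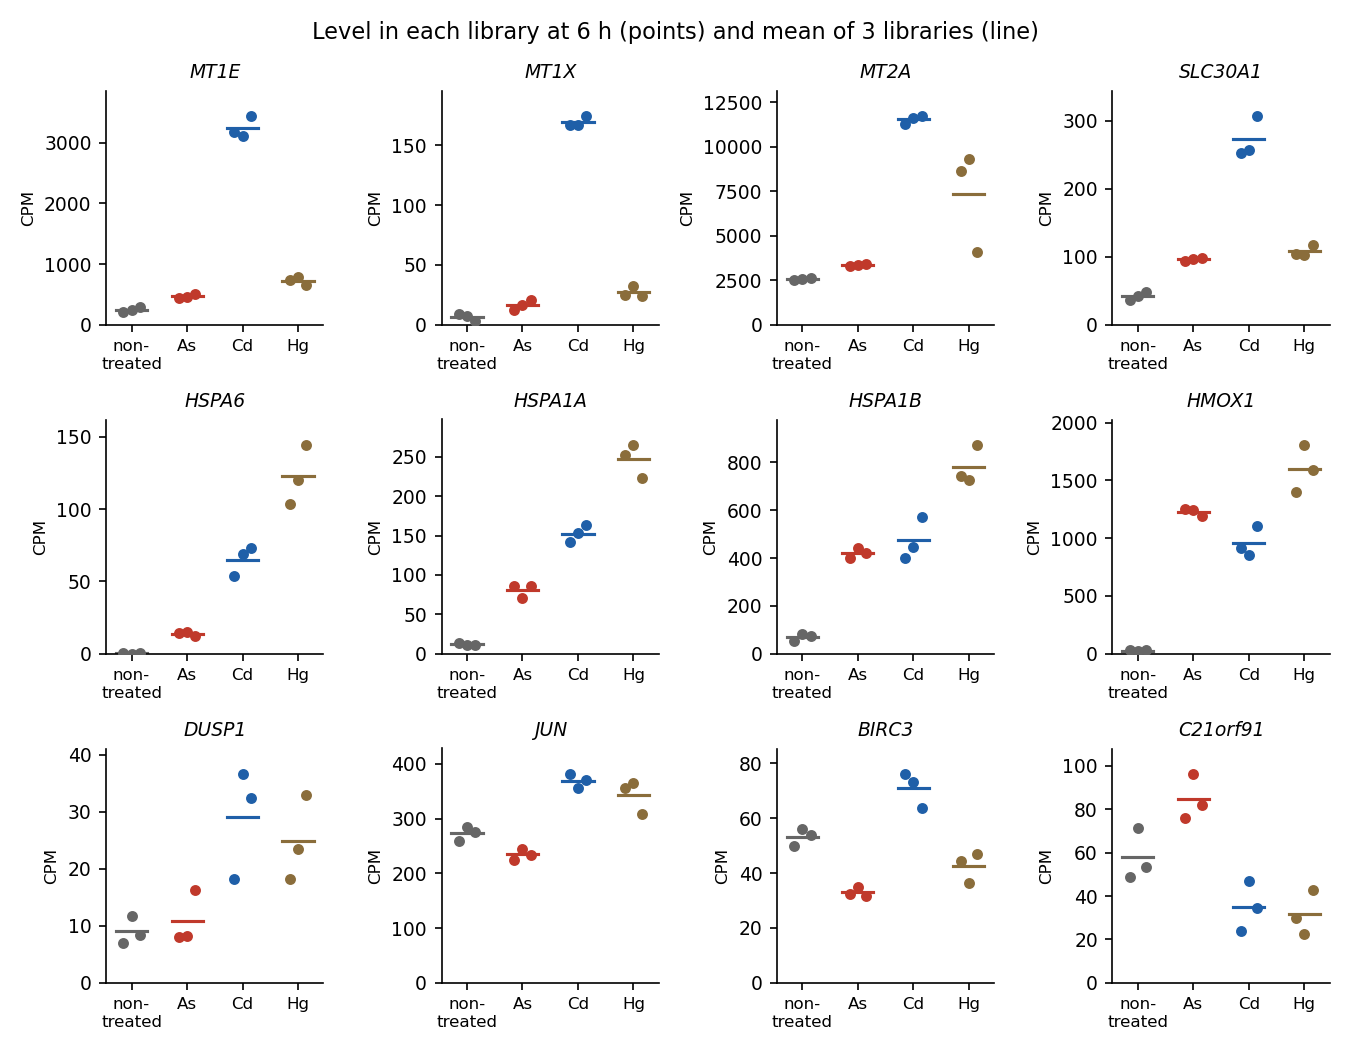
Level of 12 genes in CPM in each library at 6 h (points) with the mean of 3 libraries (line), for non-treated cells and cells with arsenic, cadmium, or mercury, with a separate vertical axis from 0 for each gene. MT1E, MT1X, MT2A, and SLC30A1 stand highest with cadmium, HSPA6 and HSPA1A are higher with cadmium than with arsenic, and HSPA1B overlaps between them.

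Both metals raised many chaperone genes, and 3 genes of the list separated the metals. Of 56 cytosolic heat-shock and co-chaperone genes tested, 17 were called higher than non-treated with arsenic and 20 with cadmium. Over all genes, 75 (0.608%) were higher and 38 (0.308%) lower than non-treated with arsenic, and 198 (1.6%) were higher and 55 (0.446%) lower with cadmium, and both comparisons share the 3 non-treated libraries. In the direct comparison HSPA6, ZFAND2A, and HSPA1A were lower with arsenic and 0 were higher (1.01% and 0.17% over all genes), and the list median LFC was -0.035. An unadjusted p under 0.05 in either direction was reached by 7 of the 56, compared with 1147 of all 12341 genes (9.29%).

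HSPA6, a stress-inducible HSP70, was at 14.7, 14.97, and 12.2 CPM with arsenic and at 53.6, 68.7, and 72.9 CPM with cadmium (LFC -2.21 ± 0.19, adjusted p = 9.79e-14). Non-treated cells had at most 2 counts per library, so its level was at least 11.4-fold higher with arsenic and at least 53.2-fold higher with cadmium. The arsenic libraries thus lay between the other groups with no overlap. ZFAND2A, an arsenite-inducible cofactor of the proteasome, was at 12.6, 13.1, and 12.2 CPM with arsenic and at 25.3, 27.7, and 28.4 CPM with cadmium (LFC -1.10 ± 0.25, adjusted p = 0.00813). Over non-treated cells it rose with cadmium (LFC 1.63), whereas its LFC of 0.53 with arsenic was not called (adjusted p = 0.62). Without arsenic library 3 its adjusted p was 0.0518.

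HSPA1A and HSPA1B encode the same HSP70 protein from neighbouring genes. HSPA1A was at 85.8, 71.4, and 86.1 CPM with arsenic and at 141, 153, and 163 CPM with cadmium (LFC -0.91 ± 0.15, adjusted p = 4.15e-05). HSPA1B was at 401, 442, and 422 CPM with arsenic and at 401, 446, and 573 CPM with cadmium, with overlapping groups and an LFC of -0.17 ± 0.14 that was not called. Of the 50-base stretches at the end of HSPA1A, 6.76% also occur in HSPA1B. When the counts of both genes were added, a choice made after the values were seen, the levels were 487 to 513 CPM with arsenic and 542 to 736 CPM with cadmium, and the LFC of -0.32 was not called (adjusted p = 0.339). DNAJB1, the HSP40 partner of HSP70, and BAG3, its nucleotide exchange factor, rose over non-treated cells with LFCs of 1.33 and 1.46 with arsenic and of 1.59 and 1.75 with cadmium. Their LFCs between the metals were -0.26 ± 0.11 and -0.29 ± 0.12, which were not called although the groups did not overlap.

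**Figure D3:**
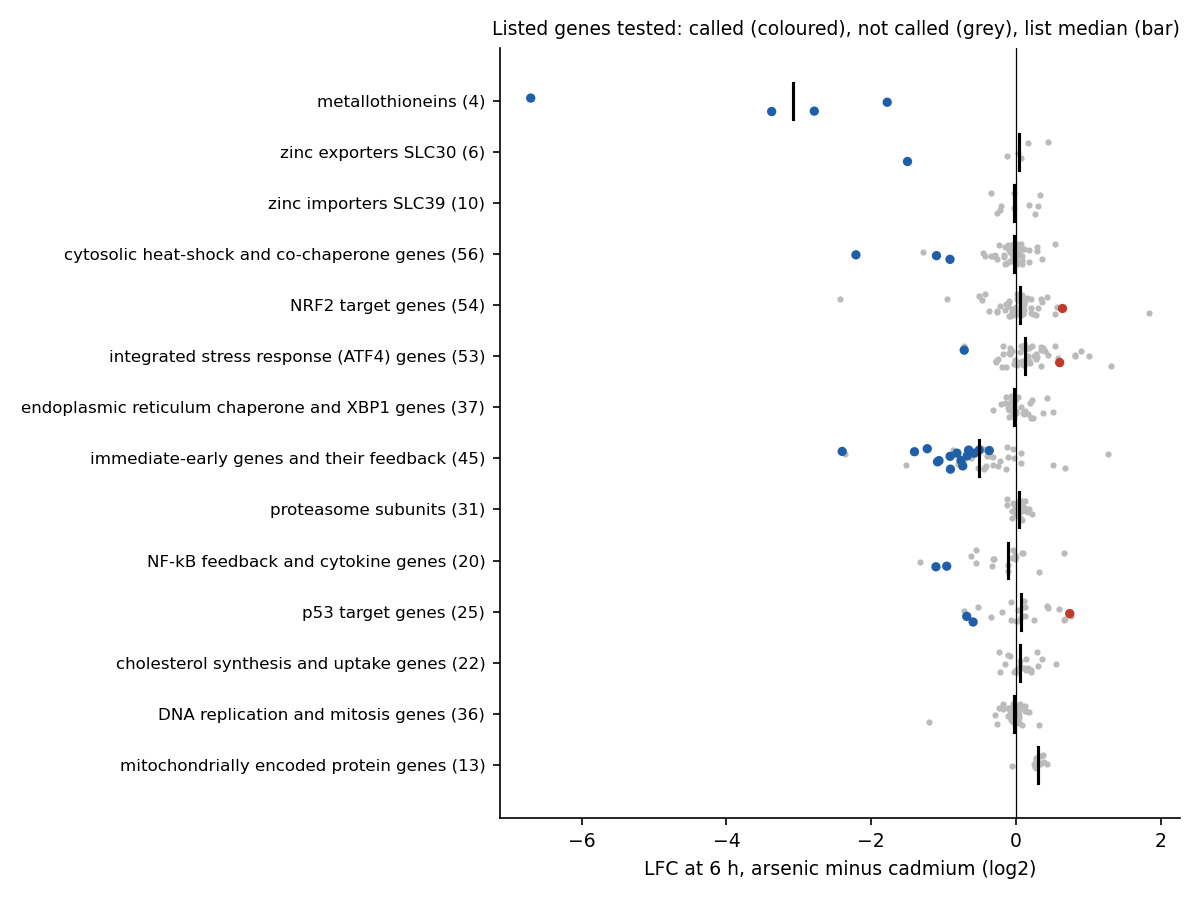
LFC of arsenic minus cadmium at 6 h for the tested members of 14 gene lists (number tested in brackets), with called genes in blue (lower with arsenic) or red (higher) and the list median as a bar. Called genes below 0 gather in the metallothioneins and in the immediate-early genes, whose median is -0.51, whereas most lists centre near 0. The leftmost point is the fitted value of MT1B.

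Some NRF2 targets rose with both metals. The 1 list member that differed between the metals, TXNIP, rose with neither. Of 54 genes tested, 10 were called higher than non-treated with arsenic and 9 with cadmium (0.608% and 1.6% over all genes). The median LFC between the metals was 0.050. HMOX1, heme oxygenase 1, was at 1256, 1241, and 1191 CPM with arsenic and at 913, 853, and 1107 CPM with cadmium, against 20.8 to 34.7 CPM in non-treated cells. The arsenic libraries all lay above the cadmium libraries, but the LFC of 0.36 ± 0.13 was not called (adjusted p = 0.211). GCLM, the modifier subunit of the enzyme that starts glutathione synthesis, was at 316, 311, and 350 CPM with arsenic and at 280, 278, and 289 CPM with cadmium (LFC 0.20 ± 0.09, not called). SLC7A11, the cystine importer, had an LFC of 0.10 ± 0.11 and the quinone reductase NQO1 of -0.10 ± 0.08, both with overlapping groups. The thioredoxin reductase TXNRD1 was at 213, 211, and 212 CPM with arsenic and at 266, 305, and 285 CPM with cadmium. Its LFC of -0.43 ± 0.15 was not called (adjusted p = 0.194) in the fit of all libraries, and was called in a fit of only the 6 libraries compared (adjusted p = 0.00881). HMOX1 and TXNRD1 were also both called when no filter on low counts was applied (adjusted p = 0.0104 and 0.0148). The peroxiredoxin reductase gene SRXN1 had 0 counts, which does not show that it was silent, because reads that overlap more than one gene were dropped.

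The only member of the NRF2 list called was TXNIP, an inhibitor of thioredoxin. It was at 45.3, 59.1, and 51.0 CPM with arsenic and at 30.7, 34.0, and 35.9 CPM with cadmium (LFC 0.63 ± 0.16, adjusted p = 0.0252). Cadmium lay below the 54.5 to 73.2 CPM of non-treated cells (LFC -0.90, adjusted p = 0.000103). With arsenic the LFC over non-treated cells was -0.27 and was not called, so TXNIP was not a gene raised by arsenic. The call was lost without arsenic library 2 or 3 or cadmium library 1 or 2, with adjusted p from 0.0596 to 0.25.

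Of 53 genes of the integrated stress response tested, 25 were called higher than non-treated with arsenic and 16 with cadmium (0.608% and 1.6% over all genes). The median LFC between the metals was 0.12, 18 genes had an unadjusted p under 0.05 (9.29% over all genes), and 2 were called. ATF5, a transcription factor translated under stress, was higher with arsenic, at 90.6, 80.4, and 74.5 CPM compared with 55.7, 47.6, and 58.0 CPM (LFC 0.60 ± 0.14, adjusted p = 0.00803). PPP1R15A, which encodes GADD34, the subunit that directs dephosphorylation of eIF2α, was lower with arsenic, at 38.4, 52.9, and 45.0 CPM compared with 72.4, 76.1, and 76.1 CPM (LFC -0.72 ± 0.15, adjusted p = 0.00334). Neither pair of groups overlapped. Both calls were lost without arsenic library 1 (adjusted p = 0.0908 and 0.066), and that of ATF5 without cadmium library 2 (adjusted p = 0.0921). Over non-treated cells, at 52.2 to 76.4 CPM, ATF5 had LFCs of 0.33 with arsenic and -0.27 with cadmium, neither called.

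Among genes called higher than non-treated with arsenic and not with cadmium were ATF4 itself and several enzymes and carriers of amino acid metabolism, but none of these separated the metals in the direct test. ATF4 had means of 557 CPM with arsenic, 423 CPM with cadmium, and 312 CPM without treatment, and its LFC between the metals was 0.40 ± 0.13 (adjusted p = 0.144). MTHFD2, of mitochondrial folate metabolism, had an LFC of 0.38 ± 0.11 (adjusted p = 0.0791), and CTH, which makes cysteine from cystathionine, of 1.30 ± 0.38 (adjusted p = 0.0719). CHAC1, TRIB3, and DDIT3, induced late in the response, had LFCs of 0.58, 0.19, and 0.17, and ATF3 and GDF15 of -0.27 and -0.72, all with overlapping groups. The asparagine synthetase gene ASNS had too few counts to test. Reads that overlap more than one gene were dropped, so its few counts do not show that it was silent. The 37 chaperones and XBP1 targets of the endoplasmic reticulum had a median LFC of -0.023, and 0 were called by edgeR (0 also at an unadjusted p under 0.05). HSPA5, its major HSP70, was at 1087, 989, and 955 CPM with arsenic and at 1038, 1013, and 1022 CPM with cadmium (LFC -0.02 ± 0.08).

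The immediate-early genes and their feedback regulators were the list with most calls. Of 45 genes tested, 15 were lower with arsenic and 0 higher (25 had an unadjusted p under 0.05 in either direction), and the median LFC was -0.51. Over all genes the shares were 1.01% lower, 0.17% higher, and 9.29% at an unadjusted p under 0.05. Against non-treated cells, 18 of the 45 were called higher with cadmium (1.6% over all genes). With arsenic GADD45A was called higher and ZFP36L1 lower (0.608% and 0.308% over all genes). The list held 6 tested dual-specificity phosphatases, which act on MAP kinases, and 3 of these were lower with arsenic (DUSP1, DUSP5, and DUSP6). Members of the family outside the list were not counted. DUSP4, DUSP14, and DUSP8 had LFCs of -0.32, -0.14, and 1.27 and were not called (adjusted p = 0.639, 0.846, and 0.478). DUSP1 was at 8.10, 8.28, and 16.2 CPM with arsenic and at 18.2, 36.7, and 32.4 CPM with cadmium (LFC -1.40 ± 0.30, adjusted p = 0.00287). Its call was lost without arsenic library 2 or cadmium library 2 (adjusted p = 0.0649 and 0.0555).

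DUSP6, which acts on ERK, was at 10.8, 13.6, and 16.2 CPM with arsenic and at 26.8, 37.5, and 31.6 CPM with cadmium, and non-treated cells had 11.4 to 12.1 CPM. DUSP5, the nuclear ERK phosphatase, was at 14.1, 21.1, and 17.1 CPM with arsenic and at 36.1, 38.6, and 37.0 CPM with cadmium, and non-treated cells had 12.7 to 18.6 CPM. For both genes the arsenic libraries overlapped the non-treated libraries and the cadmium libraries did not. Their LFCs were -1.23 ± 0.21 (adjusted p = 7.03e-05) and -1.08 ± 0.20 (adjusted p = 0.000368). The transcription factor JUN was at 225, 245, and 234 CPM with arsenic and at 382, 355, and 371 CPM with cadmium (LFC -0.65 ± 0.08, adjusted p = 3.55e-08), with non-treated cells at 260 to 284 CPM between them. IER3 had 0.29 to 2.40 CPM with arsenic and 5.36 to 7.47 CPM with cadmium (LFC -2.40 ± 0.54, adjusted p = 0.00612), and lost its call without arsenic library 2 or 3 (adjusted p = 0.0788 and 0.0971). HBEGF, a ligand of the EGF receptor, JUNB, KLF6, MAFK, and IER2 were among the other called members. FOS had at most 1.07 CPM in any of the 6 libraries, and EGR1 had an LFC of -0.44 ± 0.22 that was not called.

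Of 20 genes of NF-kB feedback and cytokines, 2 were lower with arsenic (1.01% over all genes). BIRC3, an inhibitor of apoptosis, was at 32.4, 35.01, and 31.6 CPM with arsenic, at 76.3, 73.4, and 63.6 CPM with cadmium, and at 49.8 to 55.9 CPM without treatment (LFC between the metals -1.11 ± 0.15, adjusted p = 5.83e-07). Here arsenic lay below non-treated cells (LFC -0.69, adjusted p = 0.00892), and the LFC of cadmium over non-treated, 0.42, was not called. TNFAIP3, a deubiquitinase that restrains NF-kB, had an LFC between the metals of -0.96 ± 0.25 (adjusted p = 0.0353), which was lost without any 1 of 5 libraries (adjusted p from 0.0654 to 0.226).

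RGS16 and SERTAD4 belong to none of the lists and had LFCs of -2.10 and -1.50. RGS16, which switches off G protein signalling, was at 6.00, 7.75, and 6.38 CPM with arsenic and at 30.1, 31.2, and 25.6 CPM with cadmium (adjusted p = 5.83e-07), and non-treated cells had 4.49 to 5.48 CPM. SERTAD4 was at 73.2, 74.0, and 74.3 CPM with arsenic and at 204, 194, and 227 CPM with cadmium (adjusted p = 9.10e-17). Non-treated cells had 88.0 to 96.7 CPM, so arsenic lay below and cadmium above them.

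Among 25 p53 targets tested, the median LFC was 0.074 and 3 were called, 1 higher and 2 lower (0.17% and 1.01% over all genes). DDB2, a sensor of ultraviolet damage, was higher with arsenic than with cadmium (LFC 0.74 ± 0.18). Over non-treated cells its LFC was 0.098 with arsenic, not called, and -0.64 with cadmium (adjusted p = 0.0488). The translesion polymerase POLH and PMAIP1, which encodes the apoptosis activator NOXA, were lower (LFC -0.68 ± 0.18 and -0.59 ± 0.12). The calls of DDB2 and POLH rested on single libraries, with adjusted p of up to 0.19 and 0.321 when cadmium library 1 was left out and losses without others, whereas that of PMAIP1 held without each library. The cell cycle inhibitor CDKN1A had an LFC of -0.20 ± 0.17 and was not called. In edgeR, 0 genes were called among 31 proteasome subunits (1 at an unadjusted p under 0.05), 22 genes of cholesterol synthesis and uptake (3), 36 genes of DNA replication and mitosis (3), and 13 mitochondrially encoded protein genes (0). The median LFC of the last list was 0.30, beside the low mitochondrial share of cadmium library 1. A fit without the mitochondrially encoded genes called 22 genes higher with arsenic and 127 lower.

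Of the 10 genes named among those higher with arsenic, C21orf91 alone kept its call without each single library. It also kept it under the other alternatives that test for any difference, whereas a glmTreat test of an LFC beyond 1 called 0 higher genes (32 at an unadjusted p under 0.05). It was at 75.9, 96.5, and 81.8 CPM with arsenic and at 23.8, 46.8, and 34.5 CPM with cadmium (LFC 1.29 ± 0.19, adjusted p = 2.61e-06). Non-treated cells had 49.0 to 71.3 CPM, between the groups, and the LFC was 1.07 without cadmium library 1. The others were R3HDM2, SNRNP35, HEIH, NEURL1B, DDB2, PISD, TXNIP, ATF5, and SPATA2, with LFCs of 0.58 to 0.97. Each lost its call without at least 1 library, and the groups of R3HDM2 and SNRNP35 overlapped.

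The levels without treatment show from which side the differences came. Of the 125 genes lower with arsenic, 68 were called higher with cadmium than non-treated and 11 were called lower with arsenic than non-treated, among which ZFP36L1, an mRNA decay factor, was called in both. Another 8 were called higher with both metals (MT1X, MT1E, HSPA6, SLC30A1, ANKRD1, HSPA1A, PPP1R15A, and CLU), and they are counted among the 68. For 47 genes neither comparison with non-treated cells was called. By mean level, 79 of the 125 lay below non-treated cells with arsenic and above them with cadmium, 44 lay above with both, and 2 below with both. Of the 21 genes higher with arsenic, 11 were called lower with cadmium than non-treated and 1, the NKG2D ligand ULBP1, was called higher with arsenic. Both comparisons share the non-treated libraries and also the libraries of the direct test, so these counts describe levels and are not independent of it.

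The separation of the metals changed over time. At 1.5 h edgeR called 0 genes in either direction (0% and 0%), with 835 genes at an unadjusted p under 0.05. At 3 h, 2 genes (0.0162%) were higher with arsenic, HMOX1 and GCLM, and 15 (0.122%) were lower. At 12 h, 234 genes (1.9%) were higher and 478 (3.87%) lower, and at 24 h 518 (4.2%) were higher and 736 (5.96%) lower. Of the 125 genes lower with arsenic at 6 h, 14 were also called lower at 3 h, 97 at 12 h, and 69 at 24 h. Their median LFC was -0.086 at 1.5 h, -0.27 at 3 h, -0.72 at 6 h, and -0.75 and -0.49 at the later time points. These genes were chosen by their difference at 6 h, which favours a large median at that time point. Of the 21 genes higher with arsenic at 6 h, none was called higher at 3 h, 4 were at 12 h, and 5 at 24 h.

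The gene lists followed different courses. Of the 4 metallothioneins, 3 were lower with arsenic at 3 h and all 4 at 6, 12, and 24 h. The LFC of MT1E was -1.94, -2.79, -3.16, and -2.47 at 3, 6, 12, and 24 h, and that of MT1X -2.16, -3.38, -3.46, and -3.48. Of the 56 heat-shock genes, 3 were lower with arsenic at 6 h, 21 at 12 h, and 12 at 24 h, and 2 were higher at 24 h. Of the 45 immediate-early genes, 1 was lower at 3 h, 15 were at 6 h, 23 at 12 h, and 18 at 24 h, and 1 was higher at 24 h. In the integrated stress response and NRF2 lists most calls at 12 h and 24 h were higher with arsenic. Of the 53 genes of the integrated stress response, 1 was higher with arsenic and 1 lower at 6 h, 19 were higher and 3 lower at 12 h, and 44 were higher and 3 lower at 24 h. Of the 54 genes of the NRF2 list, 2 were higher with arsenic at 3 h and 1, TXNIP, at 6 h. At 12 h, 7 were higher and 3 lower, and at 24 h, 31 were higher and 2 lower.

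**Figure D4:**
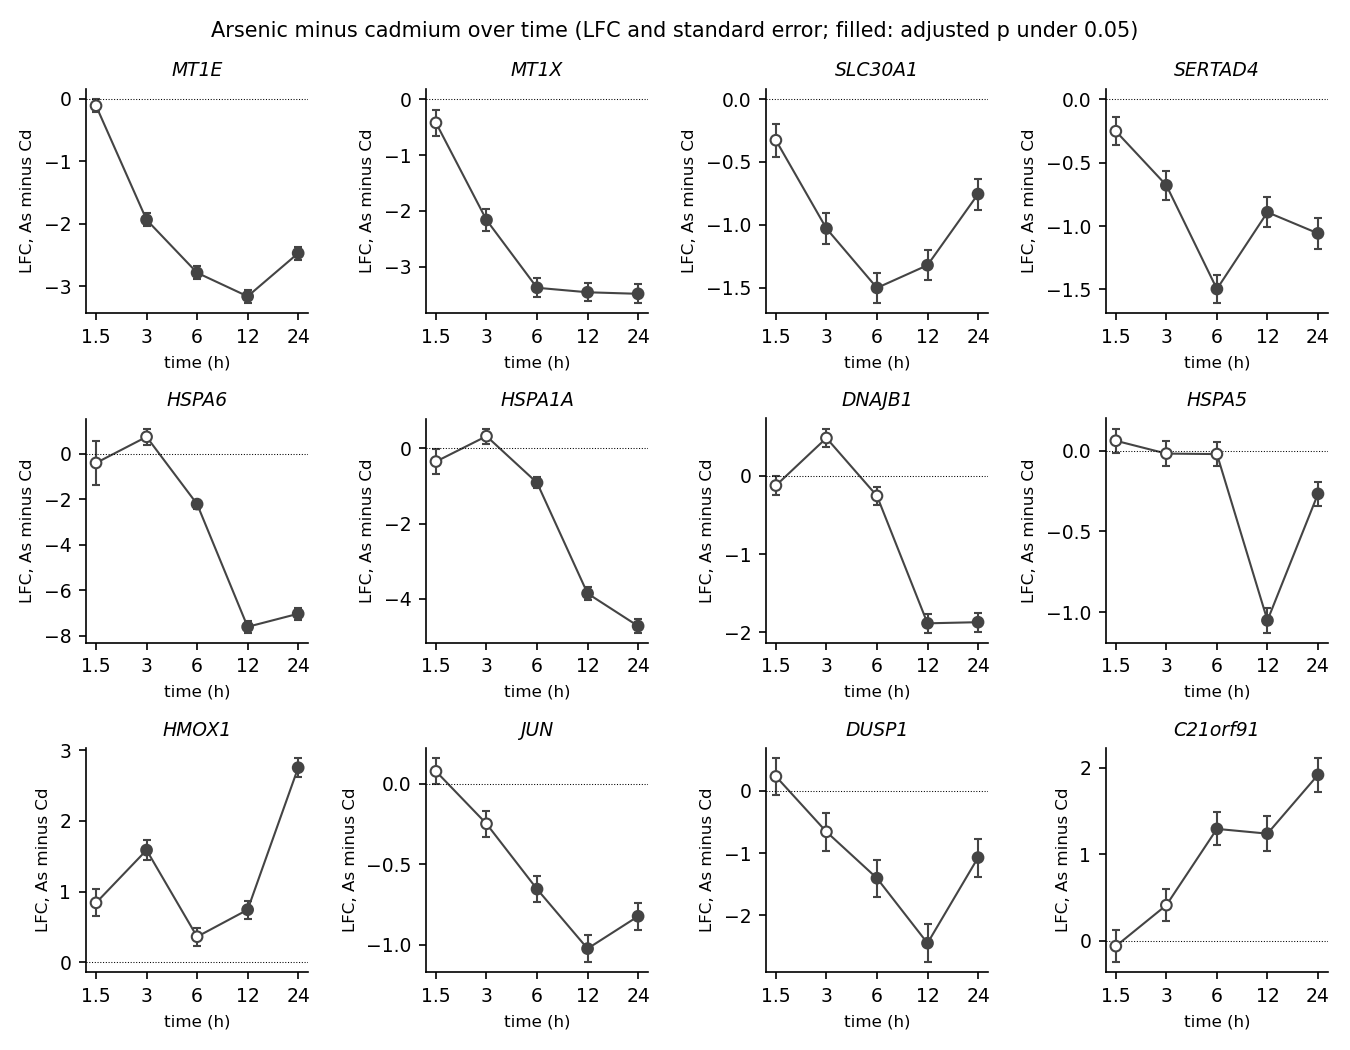
LFC of arsenic minus cadmium with its standard error for 12 genes at the 5 time points, filled where the adjusted p was under 0.05, with a separate vertical axis for each gene. MT1E and MT1X are below 0 from 3 h on, HSPA6 and HSPA1A lie above 0 at 3 h and far below it at 12 h, and HMOX1 is lowest at 6 h, at 0.36.

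The change of the difference itself was tested. Between 3 h and 6 h it changed for 9 genes (0.0729%), and between 6 h and 12 h for 31 genes (0.251%). These counts rested on single libraries, with 4 and 5 genes for the earlier interval without cadmium library 3 and without either cadmium library 1 or arsenic library 2, and 16, 17, and 17 genes for the later one without cadmium library 1, cadmium library 2, and arsenic library 2. HMOX1 had an LFC of 1.59 at 3 h and 0.36 at 6 h, a change of -1.23 (adjusted p = 4.49e-05), and was called higher with arsenic again at 12 h (0.74) and 24 h (2.75). HSPA6 went from an LFC of 0.75 at 3 h, not called, to -2.21 at 6 h and -7.61 at 12 h. HSPA1A went from 0.33, not called, to -0.91 and -3.86. Both changes of both genes passed the test. For HSPA5, the change came between 6 h and 12 h, from -0.02 to -1.05.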

How the data were processed

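Total RNA of 1321N1 cells was made into 3′ mRNA libraries (QuantSeq FWD), in which each transcript gives reads near its 3′ end. STAR 2.7.9a was used by the authors for alignment to GRCh38. They counted reads on exons of the GENCODE basic annotation, dropped those that overlap more than one gene, and deposited whole-number counts per gene without normalization. The 62703 genes were used and the 92 spike-in sequences, which had 0 counts, were left out. The 60 libraries were grouped by metal and time from their labels and fitted in a single edgeR model (version 4.0.16, R 4.3.3) with 1 coefficient for each of 20 groups, TMM factors of 0.934 to 1.03, and a filter (filterByExpr) with a minimum count of 10 and a minimum total of 15. The common biological coefficient of variation was 0.120. Contrasts were tested by quasi-likelihood and adjusted by Benjamini-Hochberg over all 12341 genes, each comparison on its own, and standard errors were derived from the F statistic. Library totals ranged from 2215276 to 4404609 over the series.

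Named genes are the 10 largest LFCs in each direction among called genes that averaged 50 counts or more per library, up to 4 called members with the largest LFC of each list, and 30 genes of metal, heat shock, NRF2, and stress responses. Genes named outside this rule were chosen after their values were seen. The comparison, the lists, and the rule were chosen with earlier results of these data known. Alternatives were DESeq2 1.42.0, scaling by RLE, dropping the filter or setting its minimum count to 30, glmTreat, fits of fewer libraries, a replicate block, and leaving out each library. A fit without mitochondrially encoded genes and the summed counts of HSPA1A and HSPA1B were added after the values were seen. Promoters came from RefSeq (GRCh38.p14) and transcripts from GENCODE, matched by symbol. The scripts were tested on simulated counts with known changes. Reads were not realigned.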

Additional observations from a re-analysis of the deposited data

Results flagged for a closer look

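For a small share of genes, the difference between arsenic and cadmium at 6 h had changed from 3 h (0.0729%) or changed by 12 h (0.251%). The change of the difference was tested in the fit of all libraries. Each value is the LFC of arsenic minus cadmium at 6 h minus that at the other time point.

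Between 3 h and 6 h the difference changed for 9 genes. The change was -2.96 for HSPA6, -1.24 for HSPA1A, -1.23 for HMOX1, -1.21 for MT1X, -0.85 for MT1E, -0.83 for ENSG00000289942, -0.82 for SERTAD4, and -0.74 for DNAJB1. The remaining gene was the kinase ABL2, with a change of -0.89, named after its value was seen. MT1X, MT1E, ENSG00000289942, and SERTAD4 were already called lower with arsenic at 3 h, so their change was a larger difference in the same direction.

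Between 6 h and 12 h the difference changed for 31 genes. It was higher at 6 h than at 12 h by 5.39 for HSPA6, 2.94 for HSPA1A, 1.99 for ZFAND2A, 1.94 for HSPA1B, 1.86 for R3HDM2, 1.63 for DNAJB1, 1.03 for HSPA5, 0.92 for SPATA2, and 0.72 for BAG3. For SLC7A11 it was lower at 6 h, with a change of -0.69.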

How the results depend on the processing

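Over the called genes named in the report and the alternatives run for single genes, no value changed direction. Of these, 387 of 463 values under alternatives stayed past the threshold, and 15 genes lost their call under at least 1 alternative. The count of genes higher with arsenic, 21 in the fit of all libraries, was 32 with DESeq2, 34 without a filter on low counts, 10 in a fit of the 12 libraries at 6 h, and 8 in a fit of the 6 libraries compared. Of those with an LFC above 1, 9 in all, 4 and 2 were left in these smaller fits. A glmTreat test of an LFC beyond 1 called 0 higher genes (32 at an unadjusted p under 0.05) and 10 of the 29 lower. Genes of the integrated stress response numbered 6 with DESeq2 and 4 in the fit of 6 libraries, in place of 2. Those of the NRF2 list numbered 3 without a filter and 0 in the fit of 12 libraries, in place of 1. The change between 6 h and 12 h was called for 47 genes with DESeq2.

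Leaving out each library gave 5 to 18 genes higher with arsenic and 84 to 113 lower. Of these, 4 to 11 had an LFC above 1 and 23 to 33 an LFC below -1. Called were 4 metallothioneins, 2 to 3 heat-shock genes, 0 to 2 genes of the NRF2 list, and 0 to 3 of the integrated stress response. The difference changed from 3 h for 4 to 6 genes and to 12 h for 16 to 33 genes. Genes with an LFC above 1 numbered 4 without arsenic library 2 and 5 without cadmium library 2. No stress response gene was called without arsenic library 1 and 1 without cadmium library 2. No gene of the NRF2 list was called without arsenic library 2 or 3 or cadmium library 2, and 2 were without arsenic library 1.

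Same-numbered arsenic and cadmium libraries deviated together at correlations of -0.022, 0.039, and -0.044, so the replicate numbers were not taken as pairs. With a replicate block, 19 genes were higher and 128 lower in all libraries, and 11 and 120 in the 6 libraries compared. In the latter fit 2 higher genes had an LFC above 1, and 4 stress response genes and 2 genes of the NRF2 list were called. RLE size factors gave 21 and 125 genes and moved the median LFC of all genes from 0.0039 to 0.0058. In these libraries 3 counts correspond to about 1 CPM, which limits the precision of genes at a few CPM.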

Other observations

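Called genes outside the lists included receptors, ligands, and regulators of growth, named here after their values were seen and therefore given as descriptions. The EGF receptor gene EGFR was at 57.0, 52.6, and 56.0 CPM with arsenic and at 91.8, 73.8, and 78.2 CPM with cadmium (LFC -0.56), and its feedback inhibitor ERRFI1 at 23.1, 34.2, and 28.7 CPM with arsenic and at 45.0, 71.0, and 67.6 CPM with cadmium (LFC -1.08). EPHA2 and PDGFRA, both receptor tyrosine kinases, had LFCs of -0.88 and -1.04. Among secreted factors, EDN1, the endothelin precursor, was at 90.9 to 99.5 CPM with arsenic and 178 to 200 CPM with cadmium (LFC -1.01), and FST, which binds activins, at 131 to 136 CPM and 224 to 247 CPM (LFC -0.80). FST lay below its non-treated level of 193 to 202 CPM with arsenic (LFC -0.57), as did RGS4, a regulator of G protein signalling, at 61.8 to 69.3 CPM against 102 to 124 CPM (LFC -0.74). The cyclin gene CCND1 had an LFC between the metals of -0.57 and the survival gene MCL1 of -0.52, each with groups that did not overlap. CLU, the extracellular chaperone clusterin, rose over non-treated cells with both metals and was lower with arsenic than with cadmium (LFC -0.65).

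Among the genes higher with arsenic, ULBP1, a ligand of the NKG2D receptor, was at 11.7, 12.6, and 11.3 CPM with arsenic and at 5.36, 3.90, and 4.27 CPM with cadmium (LFC 1.37), and non-treated cells had 3.53 to 4.75 CPM. The ephrin gene EFNA1 had the highest LFC of all called genes, 3.54, on values of 0.60 to 5.08 CPM with arsenic and 0 to 0.39 CPM with cadmium, near the floor.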
